A study of Canis lupus familiaris with 12 samples.

Results

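The motile cilia and ependymal genes of the dog hippocampus were described here: 63 gene models of the 31158 in the deposited hippocampal table. They were selected by symbol (beginning with DNAH, DNAI, CFAP, RSPH, DRC or TEKT, or one of 10 further names) and by a mean of at least 0.1 RPKM over the 6 hippocampal libraries. RPKM is a read count divided by the exon length of the gene and by the assigned reads of the library. Of 65 symbols that matched, 63 reached that level. DNAH14 (0.105 RPKM) and TMEM212 (0.117) lay just inside it, while TEKT3 (0.029) and DNAH8 (0.0217) lay outside. The name PIFO matched no row, so 9 members entered by name and 54 by prefix.

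The study sequenced mRNA of beagle hippocampus after a sham operation or after rapid pacing of the atria for 2 weeks, with 3 samples in each arm, and asked how atrial fibrillation relates to cognitive impairment. Fast electrical driving of the atria is a model of that arrhythmia. No source used here gives the age or sex of the dogs or any pooling of them. The labels do not state that the samples came from separate dogs, so p-values measure the spread between these samples.

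Motile cilia are beating cell projections built on a ring of microtubule doublets around a central pair. Dynein arms on the doublets drive the beat, radial spokes and the central pair regulate it, and nexin links hold neighbouring doublets together. In the brain these cilia are carried by ependymal cells, which line the ventricles and move cerebrospinal fluid, and in lower numbers by choroid plexus epithelium. The hippocampus borders the lateral ventricle. Neurons and astrocytes carry a single non-motile primary cilium, which lacks dynein arms and spokes but shares the transport machinery.

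Libraries held 35003483 to 51789497 assigned reads. Markers of hippocampal neurons were present in each of them (PROX1 at 7.9, 6.07 and 7.69 RPKM in pacing and 7.17, 5.16 and 4.82 in sham). Sham replicate 2 stood apart in cell type markers: the median of 14 neuronal genes lay 0.42 (log2) below their mean over the libraries, and that of 10 oligodendrocyte genes 0.73 above it. The other 5 libraries lay between 0.01 and 0.15 for the neuronal genes. For the oligodendrocyte genes those 5 ranged from -0.66 (sham replicate 3) to 0.20 (pacing replicate 2), so sham replicate 3 was also far from the mean. The choice of library left out matters. The median log2 difference over the members was -0.46 with all libraries and -0.69 without sham replicate 2. It was nearer 0 without sham replicate 1 (-0.38) or sham replicate 3 (-0.32). The counts of lower and non-overlapping members over all classes are given with and without sham replicate 2, as are the differences of described members that it moved by over 1.5 times or in sign. In bulk tissue, fewer cells of a type and less RNA per cell cannot be told apart.

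Most members were low in this tissue. Of the 63, 25 had a mean under 1 RPKM, 29 lay from 1 to 10 and 9 reached 10 or more. The median member stood at 1.37 RPKM, against 2.6 for the 21098 gene models that passed the same level. The median member had 1952 reads over the 6 libraries, and the fewest were 24 for TMEM212. CFAP36 alone supplied 43.4% of the RPKM summed over all members. The sum averaged 496.6 ± 9.99 RPKM over the pacing libraries and 526.3 ± 60.7 over the sham libraries (SD, n = 3). Without CFAP36, CFAP20 and CFAP97, which are known to be expressed in many cell types, the sum was 256.9, 211.8 and 222.9 RPKM in pacing replicates 1 to 3 and 299 (replicate 1), 260.5 (replicate 2) and 318.7 (replicate 3) in sham. On that sum every sham library lay above every pacing library, with sham replicate 2 just above pacing replicate 1. The order of those libraries turned on CFAP53, at 95 RPKM in sham replicate 2 and 63.2 in pacing replicate 1. That gap was wider than the gap between their sums. Over all 63 members the summed level was lowest in sham replicate 2 (461.6 RPKM). Their share of assigned reads was also lowest there (53787 of 51789497), just below pacing replicate 2 (42687 of 40901967). The pooled level thus did not separate the arms on every measure.

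The members varied together from library to library, inside each arm as well as between arms. Taken over all 63, the median deviation from a gene's own mean was 0.45 and 0.48 (log2) in sham replicates 1 and 3 but -0.19 in sham replicate 2. In pacing it was 0.02 in replicate 1 and -0.37 and -0.30 in replicates 2 and 3. Sham replicate 2 therefore lay with pacing for these genes, below pacing replicate 1. Over all 21098 genes the same medians lay between -0.03 and 0.06.

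This shared order was counted after the values had been seen and is a description. Sham replicates 1 and 3 were both above the other 4 libraries for 40 of 63 members (63.5%), against 9.63% of all genes tested. Both exceeded sham replicate 2 for 49 members (77.8%, against 32.9% of all genes). Pacing replicate 1 was the highest of its arm for 48 members (76.2%, against 33.4%), and 42 members showed both orders (66.7%, against 11.5%). Sham replicate 1 held the highest value for 30 members (47.6%, against 15.1% of all genes). Pacing replicate 2 held the lowest for 21 (33.3%, against 17.2%) and pacing replicate 3 for 18 (28.6%, against 13.6%). Sham replicate 2 held the lowest for 17 (27%), nearer its share of all genes (21.6%).

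**Figure D1:**
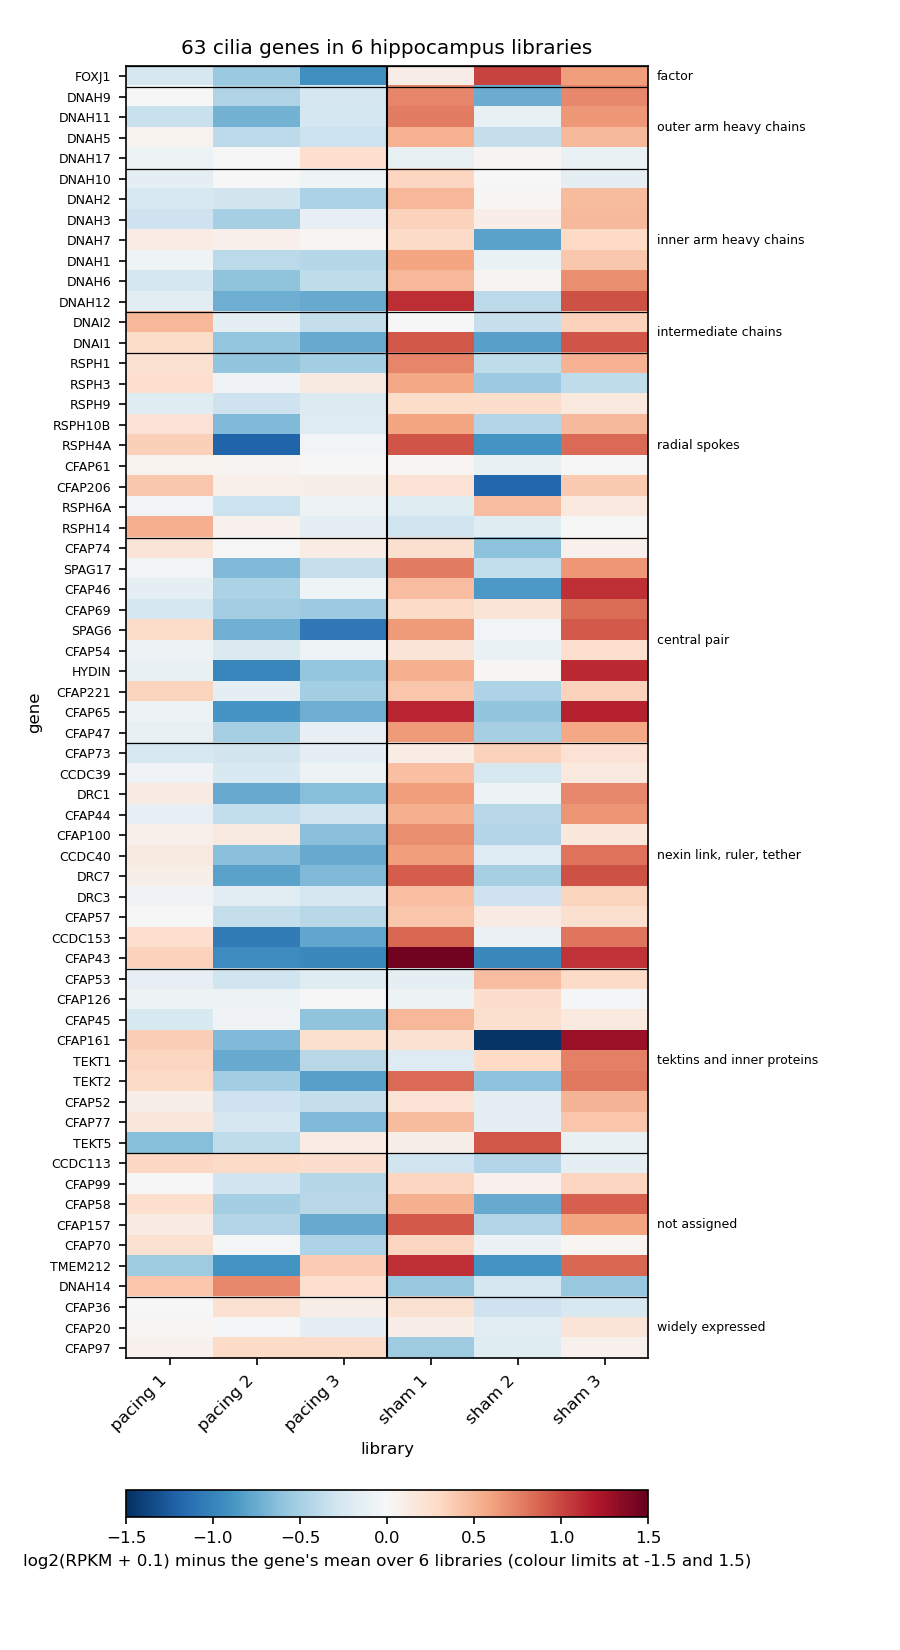
Rows are the 63 members in role classes, columns the 6 libraries, and the colour gives log2(RPKM + 0.1) minus the gene's mean over the libraries (red above, blue below). Sham replicates 1 and 3 are red for most rows, sham replicate 2 is blue or pale for most (FOXJ1 and TEKT5 are red there), and pacing replicate 1 is the least blue of its arm for most.

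Counted by class, the order was as follows. Sham replicates 1 and 3 were the highest pair for 9 of 10 central pair genes, 10 of 11 genes of the nexin link, ruler and inner arm tether, 6 of 7 inner arm dynein heavy chains and 3 of 4 outer arm chains. They were the highest pair for 3 of 9 radial spoke genes and for 3 of 9 tektin and microtubule inner protein genes. FOXJ1 did not show it. These class counts were not compared by a test.

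Spread inside the sham arm was wide. The distance between the highest and lowest sham library had a median of 0.88 (log2) over the members and 0.52 over all genes tested, and in the pacing arm the medians were 0.45 and 0.28. CFAP161, a protein inside the doublet microtubules, stood at 6.8, 3.28 and 6.2 RPKM in pacing and 6.18, 1.84 and 13.1 in sham, a 7.12-fold range within sham. CFAP43, which tethers an inner dynein arm, stood at 1.29, 0.471 and 0.462 RPKM in pacing and 2.9, 0.461 and 2.22 in sham, a 6.28-fold range within sham. Sham replicate 2 was the lowest library for both. For CFAP43 the other sham libraries lay above every pacing library, while for CFAP161 sham replicate 1 lay inside the pacing range. The log2 difference between arms was -1.04 for CFAP43 and -0.04 for CFAP161, and -1.79 and -0.79 without sham replicate 2. The range within sham was larger than the difference between the arms for 46 of 63 members (73.0%, against 86.3% of all genes).

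Against this spread, pacing and sham were compared with limma on log2(RPKM + 0.1) over 21098 genes. Of these, 5 rose and 4 fell at an adjusted p under 0.05 (0.0427%), and 0 members were among them. limma-voom on recovered reads also called 0 members. The smallest adjusted p of a member was 0.236. At an unadjusted p under 0.05, 19 members were lower in pacing (30.2%, against 6.46% of all genes tested) and 3 were higher (4.76%, against 2.85%). By arm means, 52 of 63 were lower (82.5%, against 59.1%), with a median log2 difference of -0.46 over the members and -0.05 over all genes. Every pacing library lay below every sham library for 12 members (19%, against 11.3%), and above for 2 (3.17%, against 4.88%). No test compared these shares.

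The numbers of members turned on single libraries. Without sham replicate 2, 38 of 63 members were lower at an unadjusted p under 0.05 (60.3%, against 6.7% of all genes), and for 44 every pacing library lay below both remaining sham libraries (69.8%, against 18.7%). Leaving it out moved the log2 difference of 34 members by over 1.5 times or in sign, and 28 of these then lay below 0 and lower than with it. Without pacing replicate 1, 25 members had every pacing library below every sham library (39.7%, against 15.7% of all genes). Without sham replicate 1 such members numbered 14, a share below that of all genes (22.2%, against 24.8%). They numbered 12 without sham replicate 3 (19%, against 16.3%). Without pacing replicate 2 the number was 12 (19%, against 15.2%), and without pacing replicate 3 it was 13 (20.6%, against 16%). Lower members numbered 6 without pacing replicate 2 (9.52%, against 3.6% of all genes) and 10 without pacing replicate 3 (15.9%, against 4.19%). They numbered 11 without sham replicate 1 (17.5%), where the share over all genes was also raised (12.2%), and 9 without sham replicate 3 (14.3%, against 5.1%). With each of the 6 libraries left out in turn, 0 members passed after adjustment. Under median-of-ratios scaling 1045 genes were lower and 884 higher at an unadjusted p under 0.05, where the authors' scaling gave 1363 and 601, and 16 members were lower and 3 higher. The lower share of such calls went from 69.4% to 54.2% over all genes and from 86.4% to 84.2% over the members.

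**Figure D2:**
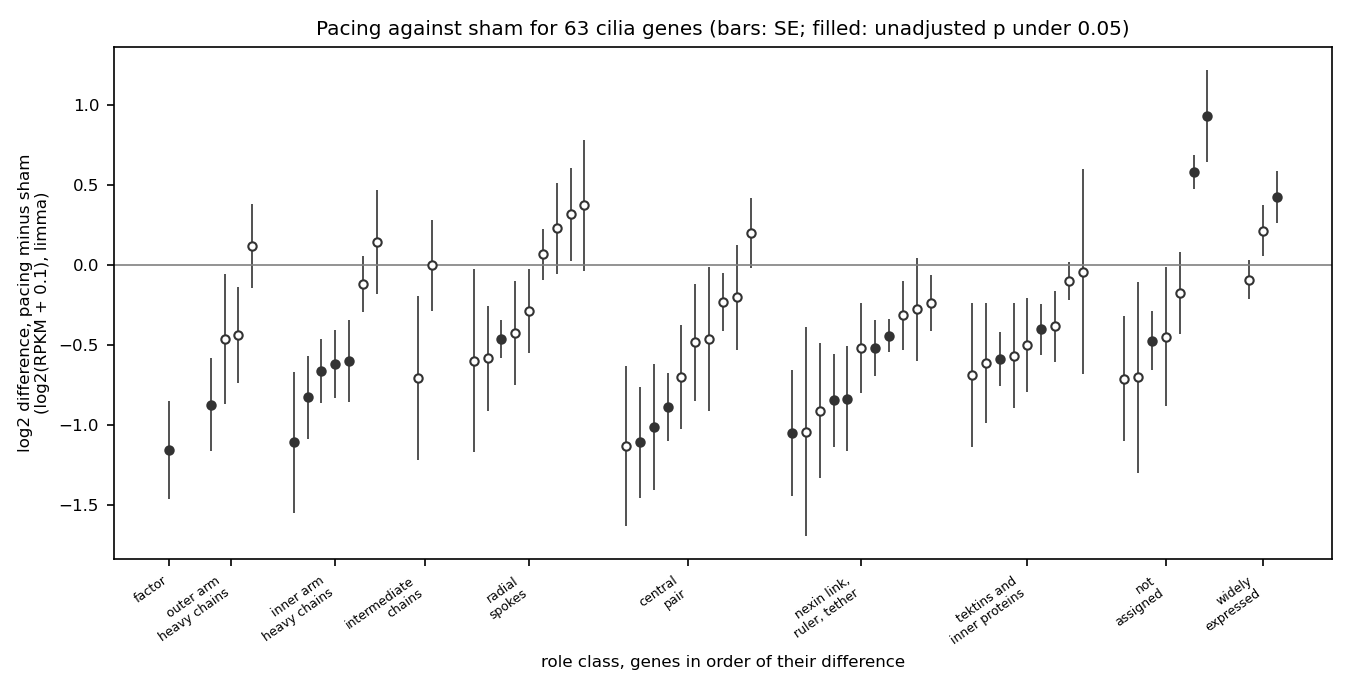
Points give the log2 difference (pacing minus sham, on log2(RPKM + 0.1)) of each member with its SE, grouped by role class on the horizontal axis; filled points have an unadjusted p under 0.05. Most points lie below 0, among them all of the tektin and nexin link classes (CFAP161, at -0.04, turns to 0.02 under median-of-ratios or quantile scaling), and the 3 filled points above 0 are in the widely expressed and unassigned classes.

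FOXJ1, the transcription factor that switches on the motile cilia programme (chromosome 9, 4512898 to 4517764, on CanFam3.1 as all positions here), stood at 0.38, 0.288 and 0.202 RPKM in pacing and 0.511, 1.05 and 0.783 in sham. All 3 sham libraries lay above all pacing libraries, with means of 0.29 ± 0.0889 against 0.783 ± 0.271 RPKM (SD, n = 3; log2 difference -1.16 with an SE of 0.31, adjusted p = 0.367). Its order within sham differed from that of most members: sham replicate 2, low for the axonemal genes, was the highest for FOXJ1. Reads were few, 367 over the 6 libraries.

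Regulators that act upstream of or beside FOXJ1 were read from a list of 16. MCIDAS, GMNC and CCNO, which drive precursor cells to form many basal bodies, had 2, 27 and 10 reads over all 6 libraries and were not tested, and CDC20B matched no row. Of 11 regulators tested, 1 was lower at an unadjusted p under 0.05 (9.09%, against 6.46% of all genes) and 0 were higher or passed after adjustment. The lower one was RFX4, a factor of the RFX family that binds ciliary gene promoters, at 5.18, 4.52 and 4.8 RPKM in pacing and 5.37, 8.03 and 8.14 in sham (adjusted p = 0.45). Its relative RFX3 stood at 10, 7.8 and 9.51 RPKM in pacing and 10.7, 7.24 and 8.82 in sham. The arms were apart for RFX4 and overlapped for RFX3. TRRAP, a cofactor of histone acetylation, stood at 3.63, 4.19 and 4.05 RPKM in pacing and 4.64, 4.37 and 4.83 in sham (adjusted p = 0.604), also with the arms apart.

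Outer arm heavy chains, the motors that set beat frequency, were low. DNAH9 (chromosome 5, 35730394 to 36060154) stood at 0.815, 0.566 and 0.664 RPKM in pacing and 1.41, 0.442 and 1.39 in sham. DNAH5 (chromosome 34, 816088 to 1040052), often mutated in human primary ciliary dyskinesia, stood at 0.481, 0.327 and 0.349 RPKM in pacing and 0.705, 0.338 and 0.686 in sham. In both, sham replicate 2 lay among or below the pacing libraries, so the arms overlapped (adjusted p = 0.73 and 0.666). Their log2 differences of -0.46 and -0.44 were -0.95 and -0.73 without that library. DNAH11 (chromosome 14, 35468080 to 35784621) stood at 0.382, 0.271 and 0.404 RPKM in pacing and 0.937, 0.464 and 0.851 in sham, with the arms apart (log2 difference -0.87 with an SE of 0.29, adjusted p = 0.452). DNAH17, the outer arm chain of sperm, was near the level of selection, at 0.107, 0.117 and 0.159 RPKM in pacing and 0.101, 0.123 and 0.103 in sham, with no order between arms (log2 difference 0.12).

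Inner arm heavy chains, which shape the waveform, were lower at an unadjusted p under 0.05 in 5 of 7 cases, against 6.46% of all genes. Role classes were not compared by a test. DNAH2 (chromosome 5, 32600902 to 32688560) stood at 0.897, 0.877 and 0.748 RPKM in pacing and 1.57, 1.09 and 1.55 in sham, with means of 0.84 ± 0.0811 against 1.4 ± 0.271 RPKM (SD, n = 3; log2 difference -0.66 with an SE of 0.20, adjusted p = 0.416). DNAH6 (chromosome 17, 40134143 to 40366419) stood at 0.267, 0.19 and 0.238 RPKM in pacing and 0.521, 0.352 and 0.616 in sham (log2 difference -0.83 with an SE of 0.26, adjusted p = 0.427). DNAH3 stood at 0.463, 0.397 and 0.543 RPKM in pacing and 0.789, 0.649 and 0.877 in sham (adjusted p = 0.453). In these 3 genes the lowest sham library was replicate 2, and it still lay above every pacing library. DNAH12 stood at 0.155, 0.0729 and 0.0699 RPKM in pacing and 0.517, 0.12 and 0.456 in sham and DNAH1 at 0.463, 0.344 and 0.34 RPKM in pacing and 0.789, 0.452 and 0.682 in sham; both were lower at an unadjusted p under 0.05 and overlapped.

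DNAH10 and DNAH7 were the inner arm exceptions. DNAH10, the most abundant heavy chain (chromosome 26, 5774692 to 5906706), stood at 1.49, 1.65 and 1.57 RPKM in pacing and 2.08, 1.63 and 1.48 in sham, with sham replicate 3 lowest of all (log2 difference -0.12). DNAH7 (chromosome 37, 5521106 to 5760383) stood at 0.598, 0.579 and 0.557 RPKM in pacing and 0.686, 0.27 and 0.692 in sham; sham replicate 2 was the lowest library by a wide margin, and the log2 difference was 0.14, or -0.22 without it.

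The intermediate chains DNAI1 and DNAI2 join outer arm motors to the doublet. DNAI1 (chromosome 11, 51080080 to 51205381) stood at 1.07, 0.541 and 0.466 RPKM in pacing and 1.74, 0.445 and 1.74 in sham, high in sham replicates 1 and 3 and intermediate in pacing replicate 1 (log2 difference -0.71, adjusted p = 0.683); the difference was -1.29 without sham replicate 2. DNAI2 (chromosome 9, 6085021 to 6114187) stood at 1.51, 0.933 and 0.796 RPKM in pacing and 1.04, 0.803 and 1.36 in sham, with pacing replicate 1 the highest of all. Its log2 difference was near 0 (-0.0024) and took the other sign under both other scalings, and it was -0.17 without sham replicate 2.

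Radial spokes carry signals from the central pair to the dyneins. RSPH1 (chromosome 31, 36771829 to 36811067), a spoke head protein and the fifth most abundant member, stood at 20.2, 11.4 and 12.1 RPKM in pacing and 28.8, 13.2 and 24.8 in sham. Pacing replicate 1 lay above sham replicate 2, so the arms overlapped (log2 difference -0.58 with an SE of 0.33, adjusted p = 0.605). RSPH9 (chromosome 12, 12093016 to 12105721), also of the spoke head, was tighter, at 3.52, 3.22 and 3.48 RPKM in pacing and 4.9, 4.85 and 4.46 in sham, and was the class member that was lower at an unadjusted p under 0.05 (log2 difference -0.46 with an SE of 0.12, adjusted p = 0.353). RSPH4A, their partner in the head, ranged widely in both arms, at 2.47, 0.772 and 1.85 RPKM in pacing and 3.78, 0.981 and 3.53 in sham (adjusted p = 0.752). Without sham replicate 2 the differences of RSPH1 and RSPH4A were -0.92 and -1.20, the second against -0.60 with it.

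Other spoke genes did not share a direction. RSPH3, a stalk protein with a role as a kinase anchor (chromosome 1, 48329171 to 48349924), stood at 9.03, 7.27 and 8.31 RPKM in pacing and 11.4, 5.12 and 5.76 in sham (log2 difference 0.23). RSPH14 stood at 0.234, 0.142 and 0.11 RPKM in pacing and 0.087, 0.103 and 0.132 in sham on 71 reads in all (log2 difference 0.32), and CFAP206, at the spoke base, had a log2 difference of 0.37. CFAP61, also of the base, varied least within sham after RSPH9, at 1.11, 1.1 and 1.07 RPKM in pacing and 1.08, 0.973 and 1.05 in sham. By arm means 5 of 9 spoke genes were lower and 4 higher, with a class median of -0.29. Without sham replicate 2 RSPH3 was at 0.01, CFAP61 at 0.02 (against 0.07) and CFAP206 at -0.12.

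**Figure D3:**
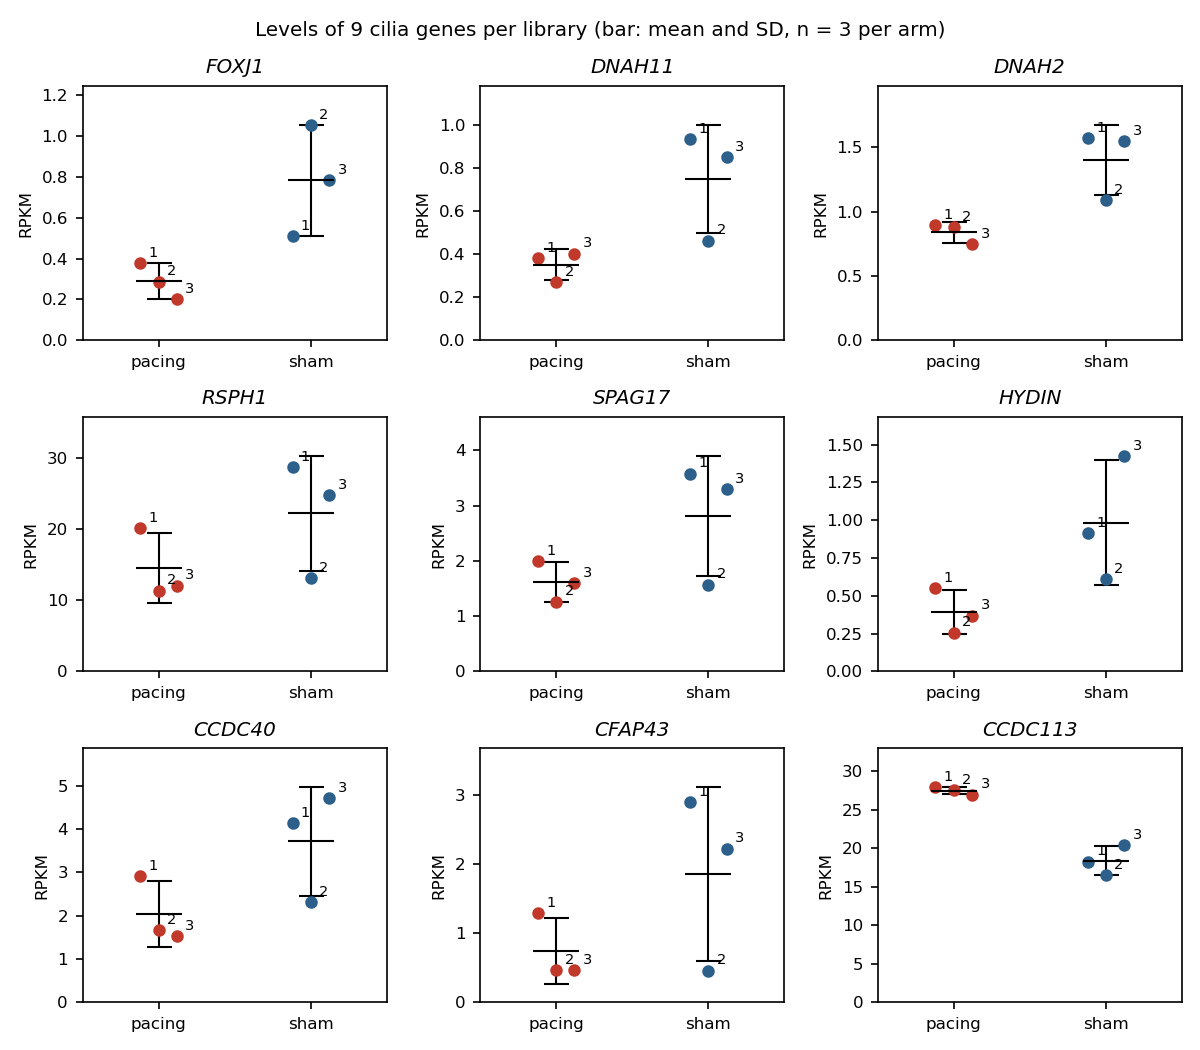
Each panel shows the RPKM of 1 member in the 6 libraries (points, numbered by replicate), with the mean and SD of each arm (n = 3). In RSPH1, SPAG17, CCDC40 and CFAP43 sham replicate 2 lies beside the pacing libraries; FOXJ1, DNAH11, DNAH2 and HYDIN have arms apart with pacing lower, and CCDC113 has arms apart with pacing higher.

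Central pair genes encode the projections of the central apparatus. HYDIN (chromosome 5, 76743872 to 77104888), whose loss causes hydrocephalus in mice, stood at 0.55, 0.257 and 0.369 RPKM in pacing and 0.914, 0.608 and 1.43 in sham, with the arms apart (log2 difference -1.11 with an SE of 0.35, adjusted p = 0.427). CFAP69 (chromosome 14, 16154334 to 16209776) stood at 1.23, 1.01 and 0.992 RPKM in pacing and 1.85, 1.73 and 2.76 in sham and was also apart (log2 difference -0.89 with an SE of 0.21, adjusted p = 0.335). SPAG6 (chromosome 2, 10737260 to 10804080) stood at 1.29, 0.592 and 0.443 RPKM in pacing and 1.67, 1.02 and 2.07 in sham, where pacing replicate 1 lay above sham replicate 2 (log2 difference -1.01 with an SE of 0.39, adjusted p = 0.512). SPAG17 (chromosome 17, 55248136 to 55468036) stood at 1.99, 1.26 and 1.6 RPKM in pacing and 3.58, 1.57 and 3.3 in sham, where pacing replicates 1 and 3 lay above sham replicate 2 (log2 difference -0.70 with an SE of 0.32, adjusted p = 0.556). CFAP65 had the largest log2 difference of the class, -1.13, at 0.439, 0.207 and 0.242 RPKM in pacing and 1.16, 0.276 and 1.16 in sham. Its adjusted p was 0.542, and sham replicate 2 lay inside the pacing range. Without that library CFAP65 was at -1.72 and SPAG17 at -1.06.

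CFAP74 (chromosome 5, 56909092 to 56970980), the most abundant central pair gene, was the member of that class with a positive difference. It stood at 8.11, 7.12 and 7.65 RPKM in pacing and 8.43, 4.6 and 7.42 in sham, with a log2 difference of 0.20 that turned to -0.05 without sham replicate 2. The class median was -0.59, and 9 of 10 genes were lower by arm means, against 59.1% of all genes. Of these, 3 were lower at an unadjusted p under 0.05, against 6.46% of all genes.

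All 11 genes of the nexin link, the ruler and the inner arm tether were lower in pacing by arm means. This held with the authors' scaling, with median-of-ratios and with quantile normalization. With the authors' scaling the class median was -0.52, and 59.1% of all genes were lower. Of the 11, 5 were lower at an unadjusted p under 0.05, against 6.46% of all genes. CCDC113, an axonemal gene left without a class, was higher in pacing (log2 difference 0.58). CFAP73 (chromosome 26, 10542631 to 10554075), which with CFAP100 connects an inner arm to neighbouring structures, stood at 13.3, 13 and 14.2 RPKM in pacing and 17, 20 and 18.4 in sham, with little spread and the arms apart (log2 difference -0.44 with an SE of 0.10, adjusted p = 0.325). CFAP57 (chromosome 15, 16903470 to 16977825) stood at 2.03, 1.57 and 1.49 RPKM in pacing and 2.75, 2.21 and 2.42 in sham, also apart (log2 difference -0.52 with an SE of 0.17, adjusted p = 0.452). DRC1, a core nexin link subunit, stood at 5.56, 3 and 3.24 RPKM in pacing and 7.93, 4.86 and 8.47 in sham (adjusted p = 0.453). Its partner CCDC153 (chromosome 5, 14679180 to 14686446), used as an ependymal marker, stood at 2.07, 0.783 and 0.959 RPKM in pacing and 3.22, 1.61 and 3.09 in sham (log2 difference -1.05 with an SE of 0.39, adjusted p = 0.487). In the last 2 genes pacing replicate 1 lay above sham replicate 2, and these were the libraries that overlapped.

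CCDC39 and CCDC40 form the ruler that sets the axonemal repeat, and they bind each other. CCDC40 (chromosome 9, 1616029 to 1656043) stood at 2.91, 1.67 and 1.52 RPKM in pacing and 4.14, 2.31 and 4.71 in sham (log2 difference -0.84 with an SE of 0.33, adjusted p = 0.512). CCDC39 (chromosome 34, 13915763 to 13959574) was higher per length in every library, at 9.42, 8.35 and 9.24 RPKM in pacing and 13.4, 8.29 and 10.8 in sham (log2 difference -0.24 with an SE of 0.18, adjusted p = 0.687). Sham replicate 1 was the highest library for CCDC39 and sham replicate 3 for CCDC40. CFAP44, the partner of CFAP43, stood at 3.03, 2.54 and 2.67 RPKM in pacing and 4.84, 2.45 and 5.31 in sham (adjusted p = 0.601), and CFAP100 overlapped as well, at 2.95, 3.06 and 1.77 RPKM in pacing and 4.58, 2.03 and 3.11 in sham. Without sham replicate 2 the log2 difference was -0.41 for CCDC39, -0.86 for CFAP44 (against -0.52) and -0.56 for CFAP100 (against -0.28).

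Tektins and microtubule inner proteins stiffen the doublets from within. CFAP53 (chromosome 7, 78612226 to 78649518) was the most abundant of them and the second most abundant member, at 63.2, 55.8 and 60.7 RPKM in pacing and 62, 95 and 84.1 in sham (log2 difference -0.40 with an SE of 0.16, adjusted p = 0.517). Here sham replicate 2 was the highest library, and sham replicate 1 lay within the pacing range. CFAP126 (chromosome 38, 21158212 to 21176889) stood at 21.2, 21.3 and 22.3 RPKM in pacing and 21.2, 26.8 and 21.8 in sham, with sham replicate 2 again highest and the other 5 libraries close together (log2 difference -0.10). CFAP45 (chromosome 38, 22245879 to 22269363) stood at 9.92, 11.2 and 7.63 RPKM in pacing and 16.4, 13.7 and 12.9 in sham, with the arms apart (log2 difference -0.59 with an SE of 0.17, adjusted p = 0.381). TEKT1, TEKT2 and CFAP52 had log2 differences of -0.57, -0.69 and -0.38 with overlapping arms. Without sham replicate 2 CFAP126 was at 0.0047 and TEKT2 at -1.17.

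The 3 members that were higher in pacing at an unadjusted p under 0.05 had no assigned class or were widely expressed. CCDC113 (chromosome 2, 58332444 to 58361265), a coiled-coil protein of centriolar satellites and the axoneme and the third most abundant member, stood at 28, 27.5 and 27 RPKM in pacing and 18.3, 16.6 and 20.4 in sham. Every pacing library lay above every sham library, with means of 27.5 ± 0.495 against 18.4 ± 1.91 RPKM (SD, n = 3) and the smallest adjusted p of any member (log2 difference 0.58 with an SE of 0.11, adjusted p = 0.236). DNAH14, a heavy chain without an assigned arm and named here after its values were seen, stood at 0.159, 0.22 and 0.13 RPKM in pacing and 0.0305, 0.0627 and 0.0302 in sham (log2 difference 0.93, adjusted p = 0.427), also with the arms apart. CFAP97 stood at 12.4, 14.4 and 14.4 RPKM in pacing and 8.18, 10.5 and 12.4 in sham, where pacing replicate 1 lay just under sham replicate 3 (log2 difference 0.42 with an SE of 0.16, adjusted p = 0.506).

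CFAP20 (chromosome 2, 58445932 to 58459437) and DRC7 (chromosome 2, 58758644 to 58775484) lie near CCDC113 on the same chromosome. CFAP20 stood at 16.1, 15.7 and 14.6 RPKM in pacing and 17, 14.3 and 18.3 in sham (log2 difference -0.09), and DRC7 was lower by arm means, at 2.62, 1.37 and 1.51 RPKM in pacing and 4.68, 1.71 and 4.85 in sham (log2 difference -0.91). CFAP36 (chromosome 10, 56373995 to 56403121), the most abundant member, stood at 219.8, 257 and 234 RPKM in pacing and 258, 176 and 186 in sham (log2 difference 0.21). For CFAP36 sham replicate 1 was the highest library and sham replicate 2 the lowest. Without the latter the log2 differences were 0.11 for CFAP36, -0.19 for CFAP20 and -1.39 for DRC7.

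Among the remaining unassigned members, CFAP99 (chromosome 3, 61764704 to 61804676) stood at 1.34, 1.08 and 0.975 RPKM in pacing and 1.71, 1.41 and 1.7 in sham, with the arms apart (log2 difference -0.47 with an SE of 0.18, adjusted p = 0.506). CFAP157 (chromosome 9, 55678266 to 55684757) stood at 0.874, 0.561 and 0.428 RPKM in pacing and 1.59, 0.561 and 1.24 in sham (log2 difference -0.71, adjusted p = 0.603); the difference was -1.11 without sham replicate 2. TMEM212 (chromosome 34, 36149443 to 36159933), a membrane protein used as an ependymal marker, stood at 0.0285, 0 and 0.141 RPKM in pacing and 0.297, 0 and 0.237 in sham on 24 reads, too few to order the libraries (log2 difference -0.70, or -1.33 without sham replicate 2). Exons of 16 members overlapped another gene model on the opposite strand, over at most 8.29% of their bases (CFAP157), and since the strand setting is not stated those reads cannot be assigned.

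Genes of the same structures that the rule did not name were read from written lists. Of 48 other axonemal genes tested, 4 were lower and 1 higher at an unadjusted p under 0.05 (median log2 difference -0.18). The 8.33% lower was near the 6.46% of all genes. The light chain gene DNALI1 stood at 5.15, 3.61 and 3.85 RPKM in pacing and 6.28, 6.79 and 6.49 in sham (adjusted p = 0.339) and MNS1, a doublet inner protein, at 25.8, 23 and 23.9 RPKM in pacing and 30.5, 39.5 and 32.4 in sham (adjusted p = 0.35), with the arms apart in both. For both of them sham replicate 2 was the highest library. Sham replicates 1 and 3 were the highest pair for 15 of the 48 (31.2%, against 9.63% of all genes).

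Factors that assemble or dock dynein arms before they enter the cilium gave 3 lower (15.8%, against 6.46% of all genes) and 1 higher of 19 (median -0.07). TTC12 stood at 0.73, 0.492 and 0.497 RPKM in pacing and 1.46, 0.881 and 1.21 in sham (adjusted p = 0.371) and the docking protein CCDC114 at 4.67, 4.85 and 5.03 RPKM in pacing and 5.8, 10.9 and 7.13 in sham (adjusted p = 0.452). Both were apart, TTC12 with sham replicate 1 highest and CCDC114 with sham replicate 2 highest. Of 28 other ependymal genes, 2 of them also on the axonemal list, 5 were lower (17.9%, against 6.46% of all genes) and 0 higher (median -0.27). CAPSL stood at 3.11, 1.8 and 1.46 RPKM in pacing and 4.05, 3.1 and 4.6 in sham (adjusted p = 0.427) and ZBBX at 1.28, 1 and 1.05 RPKM in pacing and 2.25, 1.29 and 2.94 in sham (adjusted p = 0.461), the second with the arms apart. Sham replicates 1 and 3 were the highest pair for 12 of these 28 (42.9%).

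Genes that non-motile cilia also use had small negative medians, beside -0.07 for the dynein assembly and docking factors and -0.05 over all genes. Intraflagellar transport genes, the carriers along the microtubules, gave 3 lower and 0 higher of 31 (median -0.08), and primary cilium genes 3 lower and 0 higher of 33 (median -0.14). The lower shares, 9.68% and 9.09%, were near the 6.46% of all genes. By arm means 23 of 31 transport genes and 26 of 33 primary cilium genes were lower, against 59.1% of all genes. Every pacing library lay below every sham library for 5 of 31 and 6 of 33, against 11.3% of all genes. IFT172 stood at 10.2, 9.5 and 10 RPKM in pacing and 12.2, 14.8 and 14.4 in sham (adjusted p = 0.335), IFT122 at 4.64, 4.36 and 4.02 RPKM in pacing and 5.23, 5.99 and 5.62 in sham (adjusted p = 0.446), BBS7 at 6.16, 5.5 and 5.84 RPKM in pacing and 6.39, 11.6 and 10.1 in sham (adjusted p = 0.453) and the hedgehog receptor PTCH1 at 1.41, 1.21 and 1.33 RPKM in pacing and 1.66, 1.73 and 2.11 in sham (adjusted p = 0.486). In all 4 genes the arms were apart and sham replicate 1 was the lowest sham library. The highest pair was sham replicates 1 and 3 for 6 of 31 (19.4%) and 3 of 33 (9.09%) genes, the second near the 9.63% of all genes. Over these 6 lists of genes 0 passed after adjustment.

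Choroid plexus markers did not share 1 order within sham. Of 18, 11 were highest there in sham replicate 2, 4 in sham replicate 1 (KL, SLC4A5, SOSTDC1 and STRA6) and 3 in sham replicate 3 (AQP1, KCNE2 and TRPM3). TTR, the thyroxine carrier made in choroid plexus epithelium, stood at 155, 70.5 and 103 RPKM in pacing and 2.46, 449 and 42.9 in sham. The folate receptor FOLR1 stood at 0.659, 0.165 and 0.337 RPKM in pacing and 0, 1.53 and 0.276 in sham, and the potassium channel KCNJ13 at 0.0925, 0.0702 and 0.0984 RPKM in pacing and 0.0115, 0.338 and 0.0628 in sham. These 3 were highest of all in sham replicate 2 and lowest in sham replicate 1, while STRA6 (0.252, 0.109 and 0.117 RPKM in sham) and KL (3.25, 1.83 and 2.33) were highest within sham in replicate 1. Summed over all 18 markers the level was 85.6 to 169.7 RPKM in pacing and 14.5 to 473.8 in sham. Of 17 markers tested 0 were lower or higher at an unadjusted p under 0.05, and sham replicates 1 and 3 were the highest pair for 0; CLDN2 and KCNE2 had adjusted p = 0.561 and 0.604. FOLR1 had no read in sham replicate 1, and every other marker but AQP1, with none in pacing replicate 3, had reads in all 6 libraries.

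**Figure D4:**
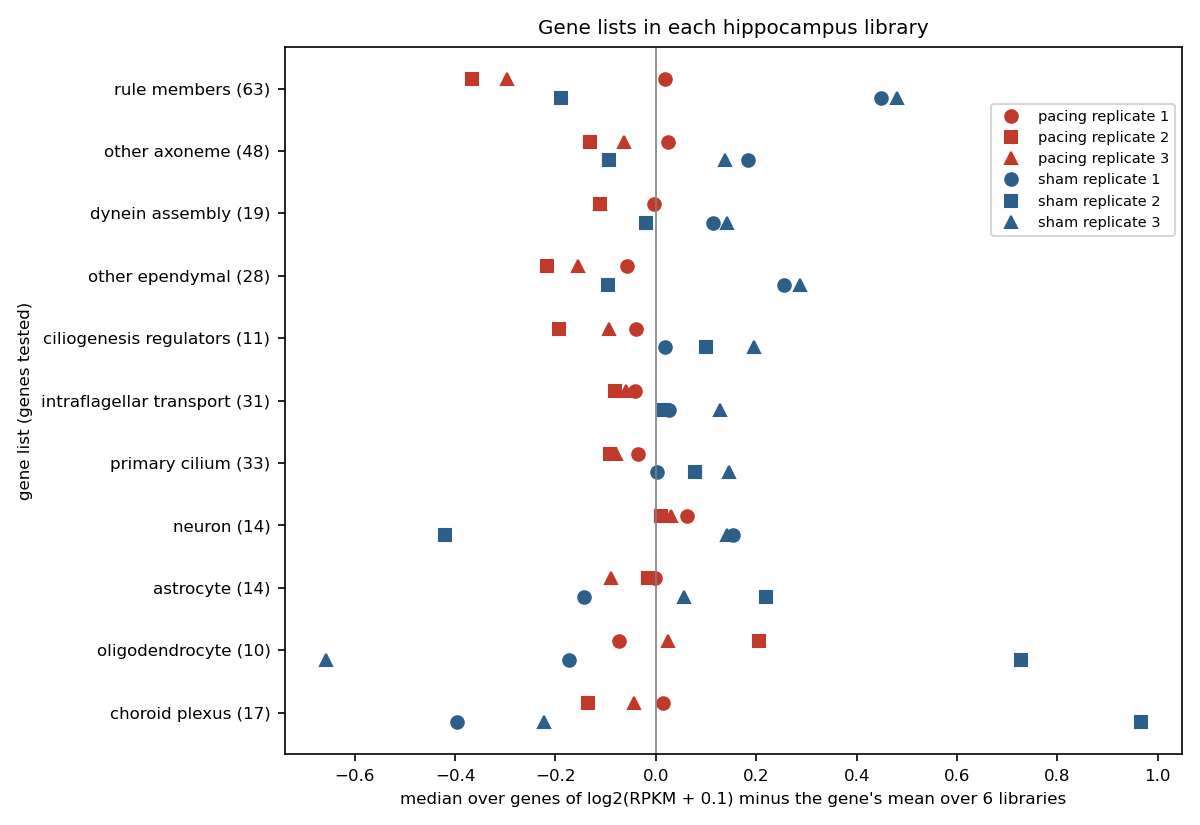
For each gene list (vertical axis, genes tested in brackets) the points give the median over its genes of log2(RPKM + 0.1) minus the gene's mean, per library (colour for arm, shape for replicate). For the members sham replicates 1 and 3 lie at 0.45 and 0.48 with sham replicate 2 among the pacing libraries, while for choroid plexus and oligodendrocyte genes sham replicate 2 is the highest point.

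Other cell type markers also shifted between libraries. Medians of the 14 astrocyte genes lay between -0.14 (sham replicate 1) and 0.22 (sham replicate 2), and those of the 10 oligodendrocyte genes between -0.66 (sham replicate 3) and 0.73 (sham replicate 2). Their summed levels were 2345 to 2628 and 1641 to 2041 RPKM in pacing, against 2047 to 3624 and 1186 to 2983 in sham. Neuronal genes summed to 3569 to 3623 in pacing and 2486 to 3765 in sham, and like the members they were highest in sham replicates 1 and 3 by their medians (0.15 and 0.14). At an unadjusted p under 0.05, 0 of the 14 neuronal, 14 astrocyte and 10 oligodendrocyte genes were lower or higher. Of 10 endothelial genes 3 were higher (against 2.85% of all genes), and of 9 meningeal fibroblast genes 1 was lower (against 6.46%). The microglial surface gene TMEM119 stood at 1.49, 1.8 and 1.53 RPKM in pacing and 1.1, 0.899 and 0.696 in sham (adjusted p = 0.358), with the arms apart. The endothelial adhesion gene PECAM1 stood at 7.7, 7.73 and 7.11 RPKM in pacing and 5.93, 6.29 and 5.16 in sham (adjusted p = 0.438). Microglial sums were 121.8 to 141.7 RPKM in pacing and 111.7 to 185.9 in sham, endothelial sums 51.9 to 54.3 and 36.7 to 52.5, and fibroblast sums 12.8 to 14.9 and 10.2 to 16.8. The part of these shifts in the differences of the cilia genes was not tested.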

How the data were processed

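Hippocampal mRNA libraries were made with a stranded kit, per the labels' protocols. Trimmomatic 0.36, STAR 2.5.3a and featureCounts were used, per the submitters' processing notes; for roles, genome build, annotation release and strand setting: not given in the sources used here. Sequence names are those of CanFam3.1. The deposited values are RPKM, made by the authors from summed exon length and assigned reads, per the file headers and values. RPKM times length gave whole reads (within 0.01) for 100% of values in each library.

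Genes with a mean of at least 0.1 RPKM were tested across all genes with limma-trend 3.58.1 in R 4.3.3 on log2(RPKM + 0.1), two-sided, with Benjamini-Hochberg adjustment at 0.05; fold changes of low genes are understated on that scale. The pseudocount equals the level at which members were chosen. The fit was tested on simulated data. Replicate pairs within an arm differed beyond sampling noise (chi-square per degree of freedom 9.65 to 149.7).

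The members and lists were chosen with earlier results of these data known. The rule for named genes took the 9 members entered by name, in each role class the 2 most abundant, the 2 lower and the 1 higher with the smallest p, up to 2 genes per list, and TTR, FOLR1 and KCNJ13; members beyond it were added after their values were seen. Not all genes of the fixed lists match a row (CDC20B and 12 of 31 assembly symbols, for example). The RefSeq gene table (UU_Cfam_GSD_1.0) holds 62 of the 63 symbols. A planned search of promoters for motifs was not run, because no promoter sequence was used here. Exosome miRNA values were not used. One marker gene and the count of microglial genes by direction are not reported here.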

Additional observations from a re-analysis of the deposited data

How the results depend on the processing

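With 0 members past the adjusted threshold, that count was the same under all 15 alternatives. The count of passing genes over the whole table, 9, was 5 with a filter at 0.5 RPKM, 3 with limma-voom on recovered reads and 19 with library weights, and 4 to 79 with 1 library left out. Members lower at an unadjusted p under 0.05 numbered 19 (30.2%, against 6.46% of all genes), and 6 to 38 with 1 library left out (9.52% to 60.3%, against 3.6% to 12.2%). Those higher numbered 3 (4.76%, against 2.85%), and 1 to 4 with 1 library left out (1.59% to 6.35%, against 1.6% to 5.83%). Members with every pacing library below every sham library numbered 12 (19%, against 11.3%), and 12 to 44 with 1 library left out (19% to 69.8%, against 15.2% to 24.8%). Without sham replicate 1 their share was below that of all genes (22.2%, against 24.8%). Members with every pacing library above every sham library numbered 2 (3.17%, against 4.88%), and 2 to 5 with 1 library left out (3.17% to 7.94%, against 7% to 12.3%). They numbered 1 with the 0.5 RPKM filter (52 members left, 1.92%, against 4.92%) and 4 under quantile scaling (6.35%, against 6.82%). The median log2 difference over the members was -0.27 at a pseudocount of 1 RPKM and -0.69 to -0.32 with 1 library left out. The ratio of summed levels, pacing over sham, was 0.944, against 0.788 without the widely expressed class and 0.856 as a share of assigned reads. The cause of these shifts was not tested, except that fewer members or libraries enter by construction.

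The labels number the replicates 1 to 3 in both arms. Deviations of same-numbered libraries correlated at -0.05, 0.05 and -0.02 across genes, so the numbers were not taken as pairs. With the replicate block 4 genes passed over the whole table, 0 members passed, and 23 members were lower at an unadjusted p under 0.05 (36.5%, against 5.68% of all genes). No pacing library correlated best with the sham library of its own number. Of the sham libraries, replicate 2 correlated best with its own number (0.05), and replicates 1 and 3 did not.

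Over 520 refits of 35 named members, 507 kept the direction. The exceptions were in 5 of these 35 members, which were picked by the rule for named genes. Without sham replicate 2, CFAP74 was at -0.054, CFAP126 at 0.0047 and DNAH7 at -0.22; with 1 library left out they ranged from -0.054 to 0.375, -0.163 to 0.0047 and -0.22 to 0.329. DNAH7 was at -0.034 with library weights. DNAH10 was at 0.0118 without sham replicate 1 and ranged from -0.219 to 0.0118. DNAI2 was at 0.0029 and 0.0014 with pseudocounts of 1 and 0.5 RPKM, 0.0532 under median-of-ratios and 0.0957 under quantile scaling, 0.0439 with limma-voom, and 0.0703, 0.173 and 0.172 without pacing replicate 2, pacing replicate 3 and sham replicate 3, within a range of -0.25 to 0.173. Described members outside the 35 also changed sign. CFAP206 was at -0.12 without sham replicate 2 (against 0.37), and CFAP161 was at 0.02 under median-of-ratios and quantile scaling (against -0.04). Depth limits TMEM212, RSPH14 and TEKT5, with 24, 71 and 76 reads in all.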
